A study of Mus musculus with 15 samples.

Results

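Brain messenger RNA was sequenced from mice treated with MPTP, a neurotoxin selective for dopamine neurons, and from control mice. The comparison used the 3 libraries titled as MPTP brain and the 3 titled as control brain, which were 6 of the 15 libraries of the series. The MPTP mice received 20 mg/kg/day by intraperitoneal injection for 1 week and were then kept on a normal diet for 4 weeks, after 1 week of acclimation that all groups shared. The controls received a normal diet alone, for 5 weeks by one label and 6 weeks by another, and no vehicle injection is mentioned for them. The protocol counts 8 mice per group, and the labels do not say which mice, or how many, went into each of the 3 libraries of a group. P-values therefore measure the spread between libraries, which may be technical. The sources used here do not give strain, sex or brain region, and the time is labelled as 6 weeks. The other 9 libraries, from MPTP mice later given levodopa or an inhibitor of the kinase BTK, entered the fit to estimate the spread between libraries.

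MPTP crosses the blood-brain barrier and is oxidised in astrocytes by monoamine oxidase B to the toxic ion MPP+. The dopamine transporter carries this ion into dopamine neurons, where it blocks complex I of the mitochondrial respiratory chain. Dopamine neurons of the substantia nigra are the most sensitive, and their axons end in the striatum, where the receptors for dopamine are made by other neurons. The messenger RNA for dopamine synthesis sits in the midbrain cell bodies, so its level in a tissue sample follows how much midbrain the sample holds as well as how many dopamine neurons it holds. The title of the series names Nurr1, the nuclear receptor encoded by Nr4a2, which dopamine neurons need to make and keep their transmitter identity.

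The promoters of the first and last enzymes of dopamine synthesis are shown because Nurr1 and cyclic AMP signalling act on genes of this pathway through short DNA motifs. The 250 bases before a RefSeq start site were read on the gene's own strand, 5′ to 3′, from GRCm38.p6. Capitals mark the cyclic AMP response element TGACGTCA in Th and, in Ddc, the reverse complement of the NR4A monomer motif AAAGGTCA.
Th, chr7:142899996-142900245, minus strand: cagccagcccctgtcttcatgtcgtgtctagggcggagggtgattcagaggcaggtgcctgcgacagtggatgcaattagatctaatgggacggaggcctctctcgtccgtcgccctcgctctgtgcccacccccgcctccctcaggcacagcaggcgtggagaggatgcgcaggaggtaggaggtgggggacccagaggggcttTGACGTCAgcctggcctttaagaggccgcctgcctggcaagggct
Ddc, chr11:11898145-11898394, minus strand: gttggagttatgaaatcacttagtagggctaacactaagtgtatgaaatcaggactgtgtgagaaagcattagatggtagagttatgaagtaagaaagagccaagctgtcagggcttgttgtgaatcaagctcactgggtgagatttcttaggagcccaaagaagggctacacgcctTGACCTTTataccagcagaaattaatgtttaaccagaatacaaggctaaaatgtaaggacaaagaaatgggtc
Both strands were searched. RefSeq lists a second Ddc start, whose window, chr11:11890409-11890658, held neither motif and is not printed. The Th element began 45 bases before the start site, and the Ddc motif began 73 bases before the upstream of its 2 start sites. Among all 32851 RefSeq promoters of this length, 1.55% held TGACGTCA and 1.34% held AAAGGTCA. Ddc was the only 1 of 10 dopamine synthesis genes with AAAGGTCA in this window. A match in these letters is a description and not a measured binding site.

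The 6 libraries held 63314658 to 68257095 reads, and levels are given in CPM, reads scaled to the TMM-adjusted library size. A count of 3 reads was worth 0.0474 CPM or less on library totals before the TMM adjustment. Genes of neurons and glia were present in all 6, as the label of brain requires, with Gad1 at 322 to 607 CPM and Gfap at 79.7 to 238 CPM. Markers of single brain regions, however, varied widely from library to library. Each gene list was given a score per library, the mean over its tested genes of log2(CPM + 0.5) less the mean of the 6 libraries. Control 2 had a cerebellum score of 4.47 and a striatum score of -1.89. Control 1 had a striatum score of 2.71, and control 3 had a choroid plexus score of 1.87. Among the MPTP libraries, MPTP 1 had the highest hypothalamus score, 1.88. For the serotonin and noradrenaline neuron list, MPTP 3 scored 1.15 and control 3 scored 1.61, against -0.43 and -0.39 in MPTP 1 and MPTP 2. The median log2 fold change of that list was 0.32 with all libraries and -2.21 without MPTP 3. Across all genes, control 2 correlated with the other 5 libraries at Spearman's rho of 0.928 to 0.940, whereas the other 5 correlated with each other at 0.981 to 0.991. A total of 3750 genes lay more than 1 log2 unit from the MPTP mean in control 2, against 613 in control 1 and 220 in control 3. The medians of gene groups are therefore given with and without control 2, and the values of the other uneven libraries stand beside the genes they touch. The part that regional content played in any result was not tested.

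**Figure D1:**
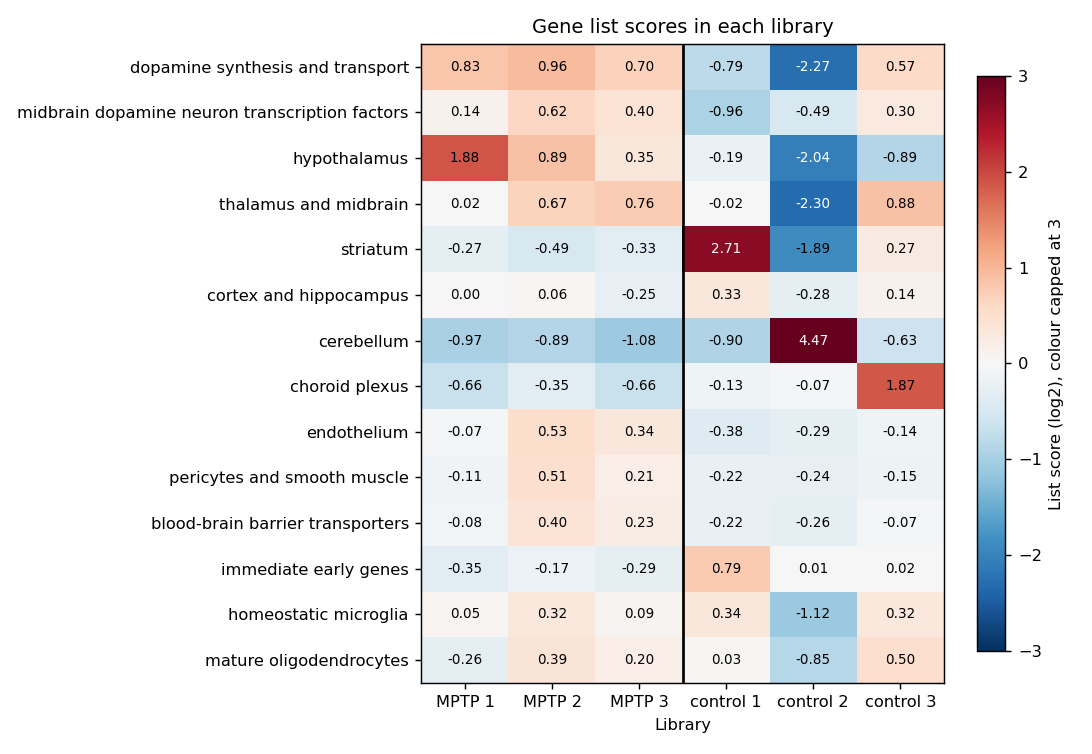
Scores of 14 gene lists (rows) in the 3 MPTP and 3 control libraries (columns), each score being the mean log2(CPM + 0.5) of the list less the mean of the 6 libraries. Control 2 stands out for cerebellum at 4.47, control 1 for striatum at 2.71 and control 3 for choroid plexus at 1.87, while the endothelium scores of the MPTP libraries all lie above those of the controls.

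No gene passed the adjusted threshold. Of 21821 genes tested with edgeR's quasi-likelihood test, 0 (0.0%) were higher and 0 (0.0%) were lower in MPTP brain, and the smallest Benjamini-Hochberg adjusted p was 0.717. Every edgeR p quoted below is therefore unadjusted, and no gene named below passed edgeR's adjusted test. An exact 2-sided permutation test of 3 against 3 libraries cannot go below 0.1. At an unadjusted p under 0.05, 546 genes (2.5%) were higher and 899 (4.12%) lower in MPTP brain, 1445 (6.62%) in all. Of these 899, 586 had their highest level in control 2, 244 in control 1 and 69 in control 3. Without control 2, 394 genes (1.76%) were higher and 603 (2.7%) lower among 22334 tested, 997 (4.46%) in all, again with 0 adjusted calls and a smallest adjusted p of 0.404 in edgeR. Both fits shared 250 higher and 333 lower genes. A library of the levodopa group also had a high cerebellum score, 4.16, and it stayed in both fits. Without control 2 and levodopa 2 together, 665 genes were higher and 933 lower among 22324, 1598 in all. The smallest edgeR adjusted p was then 0.219, with 0 adjusted calls. The count at an unadjusted p under 0.05 thus fell without control 2 alone but not without both libraries. Other fits that left out 1 library give the background for list counts below. Without control 1, 722 genes were higher and 1239 lower among 22381, and without control 3, 962 and 1870 among 22407. Without MPTP 1, 437 were higher and 429 lower among 22396, and without MPTP 2, 295 and 515 among 22386. Complete separation, with every MPTP library above or below every control, was seen for 1490 genes (6.83%) in the higher and 1352 (6.2%) in the lower direction. Against controls 1 and 3 alone it was seen for 2580 (11.8%) and 2455 (11.3%). DESeq2 on the same 15 libraries called 15 genes (0.0621%) higher and 38 (0.157%) lower at an adjusted p under 0.05, and on the 6 libraries alone 23 (0.106%) and 17 (0.078%), with 21 called in both. The median log2 fold change over all genes was -0.01.

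Genes for dopamine synthesis and transport were higher in MPTP brain than in controls 1 and 2, and close to control 3. All 10 genes of the list had a positive log2 fold change, with a median of 1.10, but 0 of 10 reached an unadjusted p under 0.05. Complete separation was seen for 5 of the 10, beside 6.83% of all genes in this direction. In these bulk libraries, fewer cells of a type and less RNA per cell cannot be told apart.

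Th, tyrosine hydroxylase, is the rate-limiting enzyme (chromosome 7, 142892779 to 142899995). It had 52.6, 67.7 and 36.1 CPM in the MPTP libraries, against 5.86, 7.42 and 27.9 CPM in controls 1, 2 and 3. The groups did not overlap, and control 3 lay nearest the MPTP libraries. The log2 fold change was 1.92 ± 0.96 (SE), with an edgeR p of 0.0684, and it was 2.96 without control 3. Without control 2 it was 1.63 with an unadjusted edgeR p of 0.160. Ddc, which turns L-DOPA into dopamine, had 59.5, 70.4 and 58.7 CPM in MPTP brain, against 13.8, 3.94 and 50.4 CPM in control brain. Again only control 3 came near, and the log2 fold change of 1.47 ± 0.88 (SE) had an edgeR p of 0.121.

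Slc18a2, the vesicular monoamine transporter, had 51.6, 74.4 and 60.2 CPM in MPTP brain, against 7.45, 0.131 and 44.1 CPM in control brain. Its groups did not overlap either, with a log2 fold change of 1.85 ± 1.35 (SE) and an unadjusted edgeR p of 0.195. Slc6a3, the dopamine transporter that admits MPP+, had 78.4, 121 and 54.5 CPM in MPTP brain, against 5.11, 0 and 55.3 CPM in control brain. MPTP 3 and control 3 were almost level here, so the groups overlapped. Gch1, which makes the cofactor of Th, had 4.10, 5.01 and 5.65 CPM in MPTP brain and 0.876, 0.985 and 4.71 CPM in control brain. Without control 3, the list's median was 2.18 in log2 and 4 of its 10 genes had p under 0.05, beside 962 of all 22407 genes higher. Without control 2 the median was 0.70 and 0 of the 10 did. The thalamus and midbrain list moved alongside, with scores of 0.02, 0.67 and 0.76 in MPTP brain and -0.02, -2.30 and 0.88 in controls 1, 2 and 3. Control 2, at the low end of both lists, was the cerebellum-rich library. The serotonin and noradrenaline neuron list had scores of -0.43, -0.39 and 1.15 in MPTP brain and -0.66, -1.27 and 1.61 in controls 1, 2 and 3. Whether these neurons played a part in the closeness of control 3 was not tested.

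The transcription factors of midbrain dopamine neurons had a median log2 fold change of 1.14, with 8 of 10 positive, 0 at p under 0.05 and 3 fully separated, beside 6.83% of all genes. The median was 1.11 with 1 higher without control 2, 0.70 with 1 lower without control 1, and 2.40 with 3 higher and 1 lower without control 3. With genes filtered at 5 CPM in 3 libraries it was 0.21. Nr4a2 itself had 18.3, 30.9 and 8.96 CPM in the MPTP libraries, against 4.56, 27.6 and 11.9 CPM in controls 1, 2 and 3. The 2 groups overlapped, with MPTP 3 below both controls 2 and 3, and the log2 fold change was 0.40 ± 0.56 (SE) with an unadjusted edgeR p of 0.489. Without control 2 it was 1.24 with an edgeR p of 0.0364 and an adjusted p of 1.0, and it turned to -0.12 without MPTP 2 and to -0.03 without control 1. Lmx1b, a homeodomain factor that specifies these neurons, had 4.35, 5.37 and 4.15 CPM in MPTP brain and 0.416, 0.312 and 2.44 CPM in control brain. It did not overlap, and its log2 fold change was 2.13 ± 1.00 (SE) with an unadjusted edgeR p of 0.0532. Foxa1, a forkhead factor of the same lineage, had 3.69, 4.96 and 2.51 CPM in MPTP brain and 0.475, 0 and 1.65 CPM in control brain. Pitx3, required by nigral neurons, stayed below 1 CPM in all 6 libraries and overlapped.

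Of 16 further markers of midbrain dopamine neurons, 7 were fully separated in the higher direction, beside 6.83% of all genes, and 0 had p under 0.05. The median was 0.80, and without control 2 it was 0.37 with 1 lower, while without control 3 it was 1.26 with 2 higher and 1 lower. Ret, the receptor for glial cell line-derived neurotrophic factor, had 81.4, 102 and 66.3 CPM in MPTP brain and 24.5, 50.0 and 60.0 CPM in control brain. All 3 MPTP libraries were above all controls, with a log2 fold change of 0.89 ± 0.44 (SE) and an unadjusted edgeR p of 0.0653. The 7 genes of monoamine breakdown had a median of 0.13, or 0.04 without control 2. Only Maoa had p under 0.05, beside 2.5% of all genes higher. Maoa encodes monoamine oxidase A, and had 73.4, 69.7 and 65.8 CPM in MPTP brain, against 53.9, 50.8 and 63.0 CPM in control brain. The difference was small, 0.32 ± 0.11 (SE) in log2 with an unadjusted edgeR p of 0.0128, and p was 0.0541 without control 2. Maob, whose product activates MPTP, had 60.4, 43.5 and 43.2 CPM in MPTP brain and 42.5, 15.7 and 37.6 CPM in control brain. Its groups were separated by less than 1 CPM between MPTP 3 and control 1, with an unadjusted edgeR p of 0.110.

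**Figure D2:**
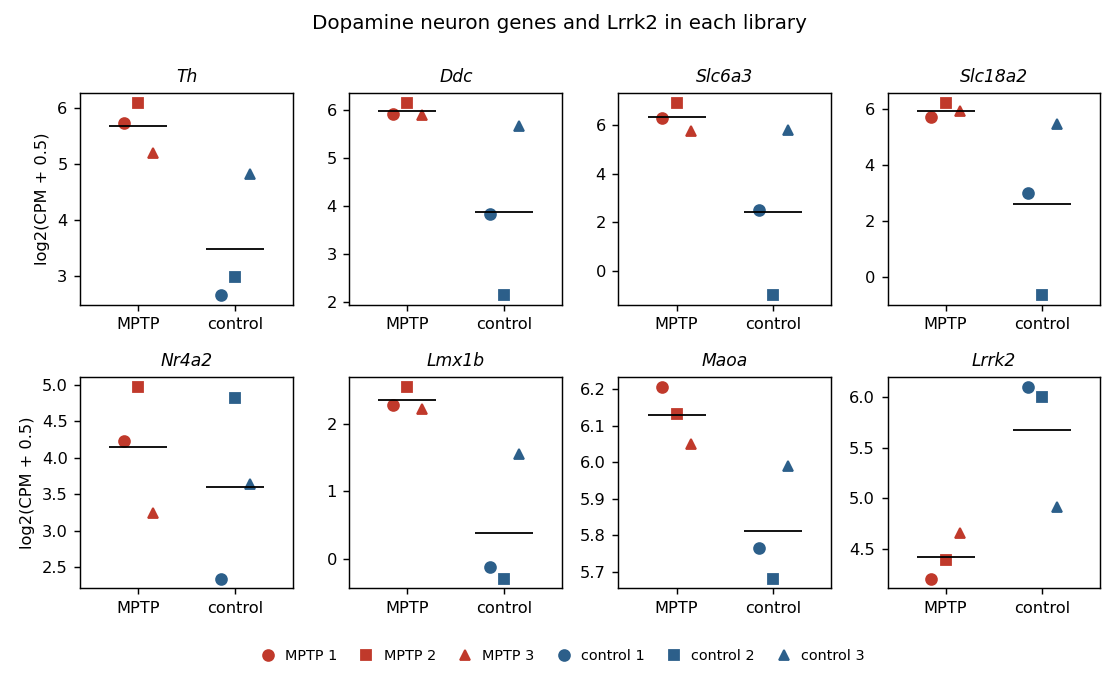
Level of 8 genes as log2(CPM + 0.5), with each library as a point (MPTP left, control right) and the group mean as a bar. For Th, Ddc, Slc6a3 and Slc18a2, control 3 (blue triangle) lies at or just below the MPTP libraries, while controls 1 and 2 lie well below.

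Of 16 tested genes for inherited Parkinson disease, Lrrk2 was the only 1 with p under 0.05, beside 4.12% of all genes lower. Lrrk2 encodes a large kinase whose activating mutations cause the disease (chromosome 15, 91672791 to 91816124). It had 17.9, 20.4 and 24.6 CPM in MPTP brain, against 68.3, 63.4 and 29.7 CPM in controls 1, 2 and 3. Every MPTP library was below every control, with control 3 closest. The log2 fold change was -1.36 ± 0.37 (SE) with an unadjusted edgeR p of 0.0029, and it stayed between -1.67 and -1.16 with p at most 0.0149 when each library in turn was left out. Striatal neurons express Lrrk2 strongly, and the striatum scores were 2.71 in control 1 and -1.89 in control 2. The part of striatal content in the Lrrk2 level was not tested. The list as a whole had a median of 0.04, or 0.02 without control 2.

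Genes of the striatum, the target of nigral dopamine axons, were lower in MPTP brain than in controls 1 and 3, and highest in control 1. Of 19 tested genes, 9 were lower and 0 higher at p under 0.05, beside 4.12% of all genes lower, 5 were fully separated, beside 6.2%, and the median log2 fold change was -1.84. Without control 1 the median was 0.01 and 4 genes had p under 0.05 in the lower direction. Without control 2 the median was -2.35 with 16 lower, beside 2.7% of all genes. Ppp1r1b, the dopamine-regulated phosphatase inhibitor DARPP-32 (chromosome 11, 98348406 to 98357796), had 16.3, 26.4 and 29.8 CPM in MPTP brain, against 528, 130 and 78.7 CPM in controls 1, 2 and 3. All controls were above all MPTP libraries, at a log2 fold change of -3.34 ± 0.76 (SE), an edgeR p of 0.000749 and a DESeq2 adjusted p of 0.00186. Leaving out control 1 reduced it to -2.11. Ppp1r1b is also made by Purkinje cells, and control 2 was the cerebellum-rich library. The part of cerebellar content in its level was not tested.

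Adora2a, the adenosine receptor of indirect-pathway striatal neurons, had 1.43, 1.57 and 1.41 CPM in MPTP brain and 120, 2.04 and 9.82 CPM in control brain. The groups did not overlap, although control 2 was only slightly above the MPTP libraries. The log2 fold change was -4.89 ± 1.16 (SE), and -2.00 without control 1. Penk, the enkephalin precursor of the same neurons, had 66.8, 32.4 and 56.2 CPM in MPTP brain and 515, 102 and 92.5 CPM in control brain. Pde10a, a striatal phosphodiesterase, had 58.6, 49.4 and 53.8 CPM in MPTP brain and 596, 164 and 97.5 CPM in control brain. Both separated the groups fully, with log2 fold changes of -2.19 ± 0.59 and -2.41 ± 0.56 (SE), which were -0.91 and -1.28 without control 1. Drd1, the dopamine receptor of direct-pathway neurons, had 3.76, 2.53 and 3.45 CPM in MPTP brain and 89.5, 0.164 and 8.20 CPM in control brain. Control 2 was the lowest of all 6, and the log2 fold change of -3.33 ± 1.37 (SE) shrank to -0.36 without control 1. Of the 10 genes for dopamine receptors and their signalling, 10 had a negative fold change and 3 had p under 0.05, beside 4.12% of all genes lower, with a median of -0.82. Without control 1 the median was 0.15 with 2 lower. Without control 2 it was -0.95 with 7 lower, beside 2.7% of all genes. Ano3, an anoctamin gene outside these lists, had 14.1, 19.2 and 26.0 CPM in MPTP brain, against 177, 59.3 and 49.2 CPM in control brain, with a log2 fold change of -2.27 ± 0.45 (SE) and a DESeq2 adjusted p of 0.00137.

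Genes of brain blood vessels were higher in MPTP brain, both with and without control 2. Of 19 endothelial genes, 12 were higher and 0 lower at an unadjusted p under 0.05, beside 2.5% of all genes, and 7 were fully separated, beside 6.83%. The median log2 fold change was 0.56. Without control 2 it was 0.58, with 8 genes at p under 0.05 beside 1.76% of all genes. The count ran from 3 without MPTP 2 to 14 without MPTP 1, and was 4 without control 1. The endothelium scores were -0.07, 0.53 and 0.34 in MPTP brain and -0.38, -0.29 and -0.14 in control brain, so that the groups did not overlap but MPTP 1 lay near control 3. In the other groups of the series the score ran from 0.23 to 0.71 with levodopa, from -0.85 to -0.21 at the low inhibitor dose and from -0.92 to -0.60 at the high dose.

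Podxl, a sialomucin of the vessel lining (chromosome 6, 31519493 to 31563937), had 28.7, 47.4 and 40.8 CPM in MPTP brain, against 18.7, 18.4 and 18.7 CPM in control brain. The 3 controls were nearly equal and all MPTP libraries lay above them. Podxl is in none of the gene lists. It was named by a rule that required separation or a DESeq2 call, so its values add no support of their own. The log2 fold change was 1.06 ± 0.22 (SE), with an edgeR p of 0.000308 and a DESeq2 adjusted p of 0.00835, and it was 1.05 without control 2. Sox17, a transcription factor of arterial endothelium, had 6.03, 8.25 and 8.10 CPM in MPTP brain and 3.55, 2.84 and 3.25 CPM in control brain. The groups were again far apart, at 1.21 ± 0.31 (SE) in log2 with an unadjusted edgeR p of 0.002, and the DESeq2 adjusted p was 0.0686. Flt1, a receptor for vascular endothelial growth factor, had 53.3, 89.4 and 75.7 CPM in MPTP brain and 34.5, 34.6 and 42.0 CPM in control brain. Tie1, a receptor kinase of endothelium, had 8.84, 15.5 and 11.9 CPM in MPTP brain and 6.22, 5.91 and 5.54 CPM in control brain. Both kept p under 0.05 whichever of the 6 libraries was left out, as 124 genes (0.568%) in the higher direction did. Pecam1, an adhesion molecule of endothelial junctions, had a smaller difference of 0.63 ± 0.26 (SE), and its p reached 0.151 when 1 library was left out.

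Pdgfb, the endothelial ligand that holds pericytes to vessels, had 11.6, 12.5 and 11.2 CPM in MPTP brain and 8.45, 5.42 and 7.26 CPM in control brain. Its log2 fold change was 0.74 ± 0.18 (SE), with an edgeR p of 0.00132 and a DESeq2 adjusted p of 0.0485. Like Podxl, Pdgfb is in none of the gene lists and was named by such a rule. Among 14 pericyte and smooth muscle genes, 14 had a positive fold change, 5 had p under 0.05 in the higher direction, beside 2.5% of all genes, and the median was 0.38, or 0.50 without control 2. The count ran from 2 without MPTP 2, where the median was 0.23, to 7 without MPTP 1. With genes filtered at 5 CPM in 3 libraries the median was 0.67. Notch3, the receptor of vascular smooth muscle, had 26.3, 24.6 and 29.8 CPM in MPTP brain and 16.3, 15.4 and 15.4 CPM in control brain. The difference of 0.77 ± 0.18 (SE) in log2 had an edgeR p of 0.00105 and a DESeq2 adjusted p of 0.0457. Rgs5, a regulator of G-protein signalling in pericytes, had 77.9, 156 and 119 CPM in MPTP brain and 69.4, 63.0 and 84.4 CPM in control brain. MPTP 1 was below control 3, so these groups overlapped.

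Of 17 transporters of the blood-brain barrier, 7 were higher at p under 0.05 and 0 lower, beside 2.5% of all genes higher, with a median of 0.39. The median was 0.36 without control 2 and 0.19 without MPTP 2. The count was 1 without MPTP 2, 2 without control 1 and 8 without MPTP 1. Slc2a1, the glucose transporter of the barrier, had 85.0, 114 and 94.9 CPM in MPTP brain and 63.2, 68.6 and 75.4 CPM in control brain. The groups did not overlap, and the log2 fold change was 0.50 ± 0.13 (SE) with an unadjusted edgeR p of 0.00203. Abcb1a, the drug pump P-glycoprotein, had 27.1, 53.5 and 43.2 CPM in MPTP brain and 23.1, 26.3 and 32.9 CPM in control brain. It overlapped, and its p was 0.0324 with all libraries and 0.0699 without control 2. Epas1, the hypoxia-inducible factor HIF-2 alpha that endothelium expresses, had 170, 211 and 190 CPM in MPTP brain and 130, 108 and 147 CPM in control brain, a difference of 0.57 ± 0.14 (SE) in log2 with an unadjusted edgeR p of 0.00129. Like Podxl, Epas1 is in none of the gene lists, and it was named by a rule that required separation or a DESeq2 call. Genes of red blood cells had scores of -0.25, 0.77 and 0.02 in MPTP brain and -0.71, 0.12 and 0.04 in control brain. Leptomeningeal genes had scores of -0.95, 0.27 and 0.36 in MPTP brain and -0.31, 0.31 and 0.32 in control brain, with a median log2 fold change of -0.11, or -0.05 without control 2 and 0.22 without MPTP 1. Both overlapped, and MPTP 1 had the lowest vascular and leptomeningeal scores of the MPTP libraries.

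**Figure D3:**
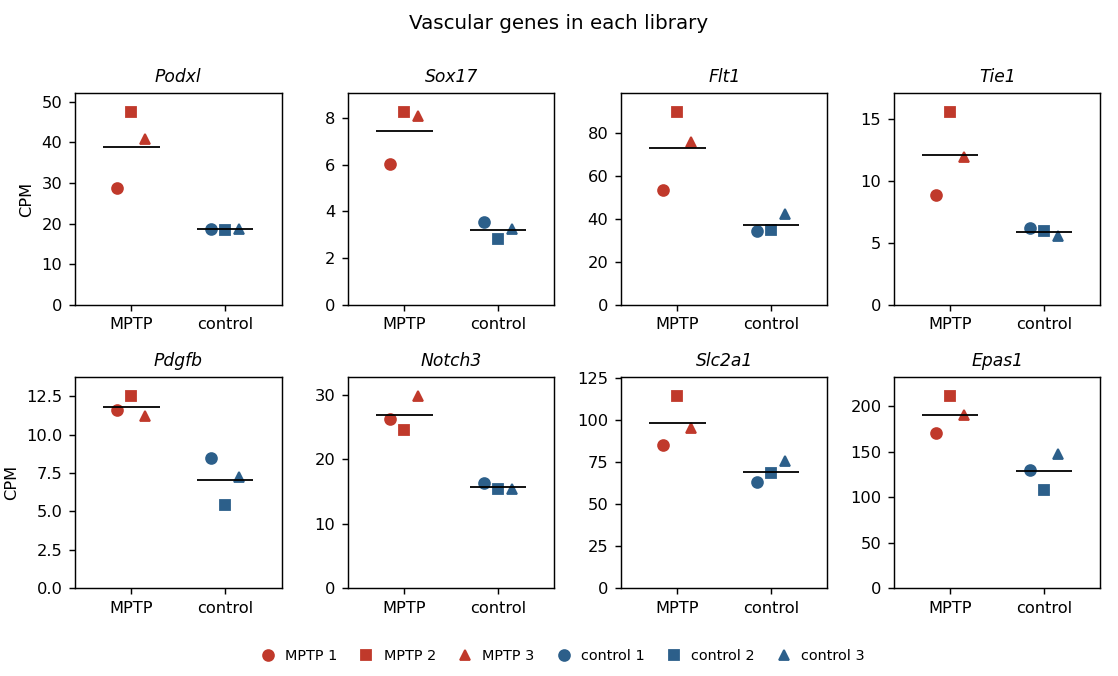
CPM of 8 vascular genes on axes that start at 0, with each library as a point (MPTP left, control right) and the group mean as a bar. Every MPTP point is above every control point in all 8 panels, and MPTP 1 (red circle) is the lowest MPTP library for Podxl, Sox17, Flt1, Tie1, Slc2a1 and Epas1. Podxl, Pdgfb and Epas1 are in none of the gene lists and were named by rules that required separation or a DESeq2 call. Complete separation was seen for 7 of 19 endothelial, 5 of 14 pericyte and smooth muscle and 3 of 17 barrier transporter genes. Of all genes, 6.83% were separated in this direction.

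Choroid plexus genes were lower in MPTP brain than in controls, most of all against control 3. Of 17 genes, 10 were lower and 0 higher at p under 0.05, beside 4.12% of all genes lower. Complete separation was seen for 5, beside 6.2%, and the median log2 fold change was -1.96. Without control 2 the median was -2.33 with 12 lower, beside 2.7% of all genes. Ttr, transthyretin, which carries thyroid hormone in cerebrospinal fluid, had 1.20, 7.64 and 1.92 CPM in MPTP brain, against 45.3, 95.4 and 857 CPM in controls 1, 2 and 3. Every control was above every MPTP library. The log2 fold change was -6.53 ± 1.31 (SE), with an edgeR p of 0.000277 and a DESeq2 adjusted p of 1.52e-05, and it was -6.96 without control 2 and -4.31 without control 3. Kcne2, a potassium channel subunit of the choroid epithelium, had 0.263, 0.249 and 0.119 CPM in MPTP brain and 0.386, 0.952 and 6.43 CPM in control brain. Aqp1, the water channel of that epithelium, had 0.117, 0.249 and 0.178 CPM in MPTP brain and 0.297, 0.755 and 3.33 CPM in control brain. Both were separated, though control 1 was little above the MPTP libraries, and without control 3 their log2 fold changes of -3.61 and -3.00 became -1.67 and -1.54. Kl, which encodes klotho, had 4.68, 4.67 and 3.64 CPM in MPTP brain and 6.00, 6.04 and 28.0 CPM in control brain. The log2 fold change of Kl, -1.62 ± 0.61 (SE), became -0.49 without control 3, and the list's median became -0.59 with 6 genes lower and 1 higher at p under 0.05.

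Genes of the hypothalamus, a list that holds transcription factors as well as neuropeptides, were higher in MPTP brain. Of 22 genes, 7 were higher and 0 lower at p under 0.05, beside 2.5% of all genes higher, 10 were fully separated, beside 6.83%, and the median log2 fold change was 2.52, or 2.04 without control 2. Without MPTP 1, the library with the highest score, the median was 1.57 with 4 higher. Without control 1 it was 3.81 with 9 higher, and without control 3 it was 2.26 with 3 higher and 1 lower. Hcrt, the precursor of the wakefulness peptides orexin A and B (chromosome 11, 100761693 to 100762931), had 69.6, 25.6 and 16.6 CPM in MPTP brain, against 0.0594, 0.0328 and 0.208 CPM in control brain. Pmch, the precursor of melanin-concentrating hormone, had 434, 220 and 114 CPM in MPTP brain and 0.683, 0.0985 and 5.27 CPM in control brain. Both genes are made by neurons of the lateral hypothalamus, and both were far lower in every control than in every MPTP library. The log2 fold changes were 8.49 ± 2.42 and 6.98 ± 2.29 (SE), with DESeq2 adjusted p of 0.00835 and 0.0365.

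Ghrh, growth hormone-releasing hormone of the arcuate nucleus, had 2.12, 1.11 and 0.535 CPM in MPTP brain and 0.148, 0 and 0.119 CPM in control brain. Nr5a1, a transcription factor of the ventromedial nucleus, had 5.78, 2.21 and 0.550 CPM in MPTP brain and 0.0594, 0.0821 and 0 CPM in control brain. MPTP 1 was the highest library for all 4 of these genes, and the list scores were 1.88, 0.89 and 0.35 in MPTP brain and -0.19, -2.04 and -0.89 in control brain. Trh, thyrotropin-releasing hormone, had 63.9, 16.8 and 14.3 CPM in MPTP brain and 8.88, 0.312 and 5.96 CPM in control brain, with an unadjusted edgeR p of 0.0926. Cartpt, a peptide that restrains feeding, had 73.3, 41.4 and 22.6 CPM in MPTP brain and 11.5, 0 and 16.1 CPM in control brain, with an unadjusted edgeR p of 0.153. The groups were separated for both, but neither reached p under 0.05. Libraries of the other groups reached 47.5 CPM for Hcrt and 292 CPM for Pmch.

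Cerebellar genes were lower in MPTP brain than in control 2, and close to the other controls. Of 17 genes, 11 were lower at p under 0.05, beside 4.12% of all genes, with a median log2 fold change of -3.28, and without control 2 none was and the median was -0.27. Gabra6, which marks cerebellar granule cells, had 0.0585, 0 and 0 CPM in MPTP brain and 0, 649 and 1.19 CPM in controls 1, 2 and 3. Itpr1, the calcium release channel abundant in Purkinje cells, had 150, 148 and 183 CPM in MPTP brain and 518, 3920 and 213 CPM in control brain. Its p was 0.0119 with all libraries and 0.198 without control 2. The cerebellum scores of the other 5 libraries ran from -1.08 to -0.63.

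**Figure D4:**
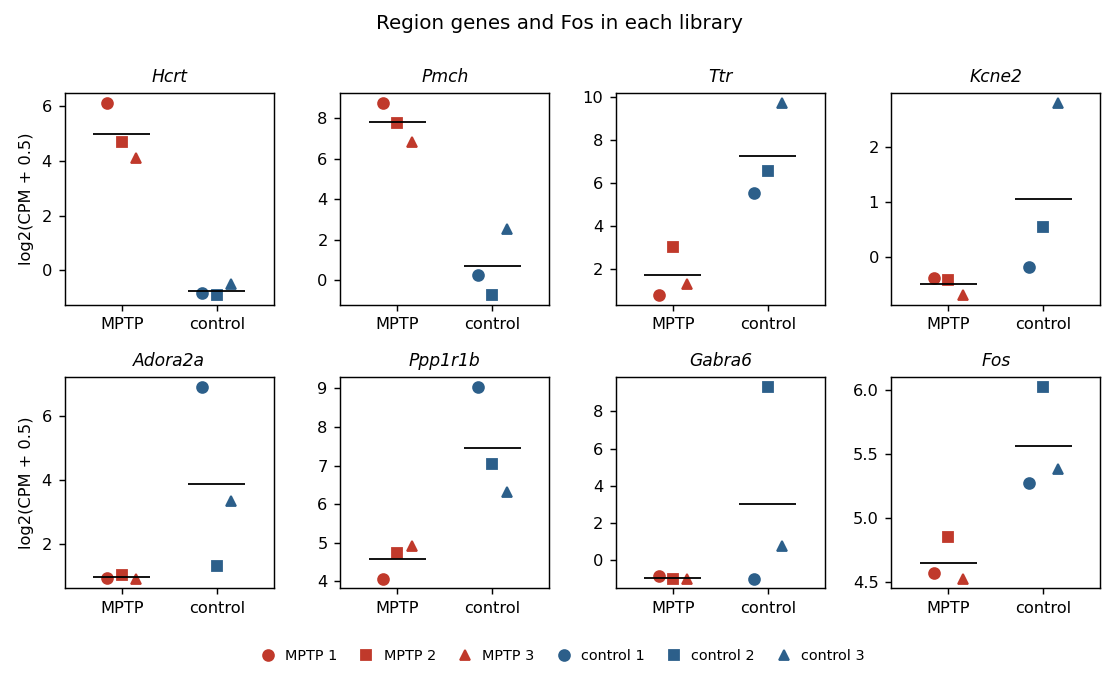
Level of 8 genes as log2(CPM + 0.5), with each library as a point (MPTP left, control right) and the group mean as a bar. Hcrt and Pmch are high in the MPTP libraries, Ttr and Kcne2 are highest in control 3, Adora2a and Ppp1r1b are highest in control 1, and Gabra6 is high in control 2 alone.

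Immediate early genes, which neurons switch on within minutes of firing, were lower in MPTP brain. Of 24 genes, 8 were lower and 0 higher at p under 0.05, beside 4.12% of all genes lower, 7 were fully separated, beside 6.2%, and the median log2 fold change was -0.82. Without control 2 the median was -0.59 and 10 genes were lower, beside 2.7% of all genes, and without control 1 it was -0.44 and 5 were lower. The count was lowest, at 4, without MPTP 1 and highest, at 11, without control 3. Fos, a subunit of the AP-1 factor (chromosome 12, 85473890 to 85477274), had 23.2, 28.4 and 22.5 CPM in MPTP brain, against 38.1, 64.6 and 41.2 CPM in control brain. All 3 controls were above all MPTP libraries, at a log2 fold change of -0.96 ± 0.25 (SE) and an unadjusted edgeR p of 0.00208, and at -0.69 with an unadjusted edgeR p of 0.011 without control 2. Atf3, a stress-induced factor of the ATF family, had 1.07, 1.05 and 0.401 CPM in MPTP brain and 2.14, 2.99 and 3.42 CPM in control brain. Its groups were also separated, with a log2 fold change of -1.76 ± 0.39 (SE) and a DESeq2 adjusted p of 0.00872.

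Nr4a1, a nuclear receptor related to Nurr1, had 13.3, 16.8 and 16.0 CPM in MPTP brain and 47.9, 45.2 and 15.3 CPM in control brain. Control 3 lay within the MPTP libraries. Egr1, a zinc finger factor of the same response, had 46.0, 63.1 and 70.2 CPM in MPTP brain and 158, 88.1 and 73.1 CPM in control brain. Arc, a gene for synaptic plasticity, had 12.8, 22.4 and 24.6 CPM in MPTP brain and 72.6, 16.8 and 25.2 CPM in control brain. Control 1, the striatum-rich library, had the highest level of both, and without it the log2 fold change of Arc was -0.07. The scores of the list were -0.35, -0.17 and -0.29 in MPTP brain and 0.79, 0.01 and 0.02 in control brain, and in the other groups they ran from -0.41 to 0.24 with levodopa, from 0.88 to 1.42 at the low inhibitor dose and from 0.70 to 1.34 at the high dose. The sources used here do not give the hour of collection. Of 16 genes of the circadian clock, 3 were lower at p under 0.05, beside 4.12% of all genes, with a median of -0.23, and without control 2 none was and the median was -0.02. Arntl, the clock activator BMAL1, had 25.9, 22.5 and 23.2 CPM in MPTP brain and 31.3, 44.4 and 27.6 CPM in control brain.

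The homeostatic microglia list had a small median fold change whose sign turned when control 2 was left out. All 22 homeostatic microglia genes had a positive fold change, with a median of 0.14 and 0 at p under 0.05, and without control 2 only 2 were positive and the median was -0.20. Against controls 1 and 3 alone, 8 of the 22 lay fully below both controls, beside 11.3% of all genes. The 14 tested genes of activated microglia had a median of -0.18, or -0.07 without control 2 and 0.29 without control 1. Of them, only Axl had p under 0.05, beside 2.5% of all genes higher. Aif1, the microglial protein IBA1, had 3.18, 3.73 and 2.82 CPM in MPTP brain and 3.67, 0.837 and 4.38 CPM in control brain. Btk, the kinase that the inhibitor of the series targets, had 1.13, 1.33 and 0.758 CPM in MPTP brain and 0.965, 0.328 and 0.951 CPM in control brain. The groups overlapped for both, and Btk had a log2 fold change of 0.52 ± 0.42 (SE), or 0.16 without control 2. Of 15 genes of BTK signalling 0 had p under 0.05, with a median of 0.14, or 0.05 without control 2 and 0.45 with 1 higher without control 3. Complete separation in the higher direction was seen for 4 of these 15, beside 6.83% of all genes. Against controls 1 and 3 alone it was also seen for 4, beside 11.8%. Plcg2, the phospholipase that BTK activates, had 6.58, 6.82 and 6.33 CPM in MPTP brain and 4.20, 2.61 and 5.81 CPM in control brain, with an unadjusted edgeR p of 0.0700.

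Axl, a receptor kinase by which microglia and vessel cells clear debris, had 60.8, 69.9 and 65.7 CPM in MPTP brain and 48.2, 48.1 and 51.5 CPM in control brain. The separation was clean and the difference small, 0.41 ± 0.11 (SE) in log2 with an unadjusted edgeR p of 0.00203. Of 13 tested inflammation genes, 1 had p under 0.05, beside 2.5% of all genes higher. The median was 0.19, or -0.02 without control 2 and -0.28 without MPTP 2. The gene with p under 0.05 was Nos2, inducible nitric oxide synthase, with 0.644, 0.864 and 0.654 CPM in MPTP brain and 0.178, 0.345 and 0.490 CPM in control brain. Of 15 interferon response genes, 13 were positive with a median of 0.37 and 1 had p under 0.05, beside 2.5% of all genes higher. The median was 0.33 without control 2, 0.17 without MPTP 2 and also without control 1, and 0.13 with genes filtered at 5 CPM in 3 libraries. The gene with p under 0.05 was Oasl2, an interferon-induced gene of the oligoadenylate synthetase family, with 4.35, 6.21 and 7.33 CPM in MPTP brain and 3.33, 3.46 and 4.04 CPM in control brain. Neither kept p under 0.05 without control 2, at 0.0693 for Nos2 and 0.0616 for Oasl2.

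Astrocyte genes had a median of 0.06, and 2 of 17 were higher at p under 0.05, beside 2.5% of all genes. Complete separation in the higher direction was seen for 5 of the 17, beside 6.83% of all genes. Against controls 1 and 3 alone it was seen for 7, beside 11.8%. Without control 2 the median was 0.23 with 15 of 17 positive and 0 at p under 0.05, and without MPTP 1 it was 0.21. Agt, angiotensinogen, which astrocytes of the hypothalamus and midbrain make, had 230, 203 and 158 CPM in MPTP brain and 100, 63.7 and 141 CPM in control brain. It separated the groups, with a log2 fold change of 0.96 ± 0.41 (SE), and its p of 0.0378 became 0.127 without control 2. Gfap, the filament protein of reactive astrocytes, had 79.7, 201 and 231 CPM in MPTP brain and 164, 155 and 238 CPM in control brain. MPTP 1 was the lowest and control 3 the highest of the 6, with a log2 fold change of -0.12 ± 0.35 (SE). Of 13 reactive astrocyte genes 0 had p under 0.05, with a median of 0.07, or 0.04 without control 2 and -0.24 without MPTP 2. Nor did any of 15 mature oligodendrocyte genes have p under 0.05, whose median was 0.12 and, without control 2, -0.11.

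Genes of the mitochondrial respiratory chain, which MPP+ blocks, had medians close to that of all genes. The 37 nuclear subunits of complex I had a median log2 fold change of -0.03, or -0.05 without control 2, with 0 at p under 0.05. The 36 nuclear subunits of complexes II to V had a median of -0.06, or -0.07 without control 2, also with 0. Uqcr11, a subunit of complex III, had 41.5, 44.8 and 45.7 CPM in MPTP brain and 48.1, 52.7 and 53.8 CPM in control brain, with an unadjusted edgeR p of 0.0801. Of 13 protein genes of the mitochondrial genome, 1 had p under 0.05, beside 2.5% of all genes higher. The median was 0.10, or -0.06 without control 2. The gene with p under 0.05, ND5 of complex I, had 4260, 5140 and 3980 CPM in MPTP brain and 3710, 2310 and 3420 CPM in control brain. The fold change of 0.50 ± 0.21 (SE) in log2 was 0.32 with an unadjusted edgeR p of 0.119 without control 2, the library with the lowest mitochondrial share. Of 20 antioxidant genes 0 had p under 0.05, with a median of 0.06, or 0.01 without control 2. The 18 genes of the unfolded protein response had a median of -0.03, or -0.13 without control 2. Atf6, a sensor of the endoplasmic reticulum, was the only 1 with p under 0.05, beside 4.12% of all genes lower. It had 40.8, 43.7 and 47.0 CPM in MPTP brain and 70.5, 82.0 and 52.7 CPM in control brain, a log2 fold change of -0.64 ± 0.19 (SE). The 12 heat shock genes had a median of -0.04, or -0.14 without control 2, and 1 was lower at p under 0.05, beside 4.12% of all genes. This was Hspa1b, a gene with a near-identical copy. It had 7.01, 4.01 and 6.39 CPM in MPTP brain and 10.3, 9.10 and 16.1 CPM in control brain. Ribosomal protein genes had a median of 0.11 with 39 of 45 positive, and without control 2 a median of -0.05 with 6 positive.

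Among neuronal genes outside the dopamine system, 1 of 21 synapse genes, 1 of 12 genes of transmitter synthesis and loading and 2 of 12 interneuron genes were lower at p under 0.05, beside 4.12% of all genes, and none was higher. Without control 2, 0 synapse genes were lower and 1 was higher, 1 interneuron gene was lower, and 1 of transmitter synthesis and loading was lower. Without control 3, 5 synapse genes were lower and 0 higher, while each of the other two lists had 1 gene higher. The medians were -0.18, -0.25 and -0.08 for synapse, transmitter and interneuron genes, or -0.06, -0.31 and -0.12 without control 2. Gad1, which makes GABA, had 322, 391 and 522 CPM in MPTP brain and 603, 607 and 542 CPM in control brain. The groups did not overlap, although MPTP 3 came close to control 3, and p was 0.0153. Npy, a peptide of interneurons, had 4.90, 7.45 and 8.80 CPM in MPTP brain and 19.4, 12.9 and 9.82 CPM in control brain, with an unadjusted edgeR p of 0.0125. Kcnab1, a potassium channel subunit, had 58.8, 67.4 and 85.1 CPM in MPTP brain and 214, 155 and 110 CPM in control brain, with an unadjusted edgeR p of 0.00403. In these 3 genes control 3 lay nearest the MPTP libraries, as in the dopamine genes. Ntrk2, the receptor for brain-derived neurotrophic factor, had 806, 751 and 743 CPM in MPTP brain and 638, 386 and 579 CPM in control brain, with an unadjusted edgeR p of 0.0385, or 0.151 without control 2.

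**Figure D5:**
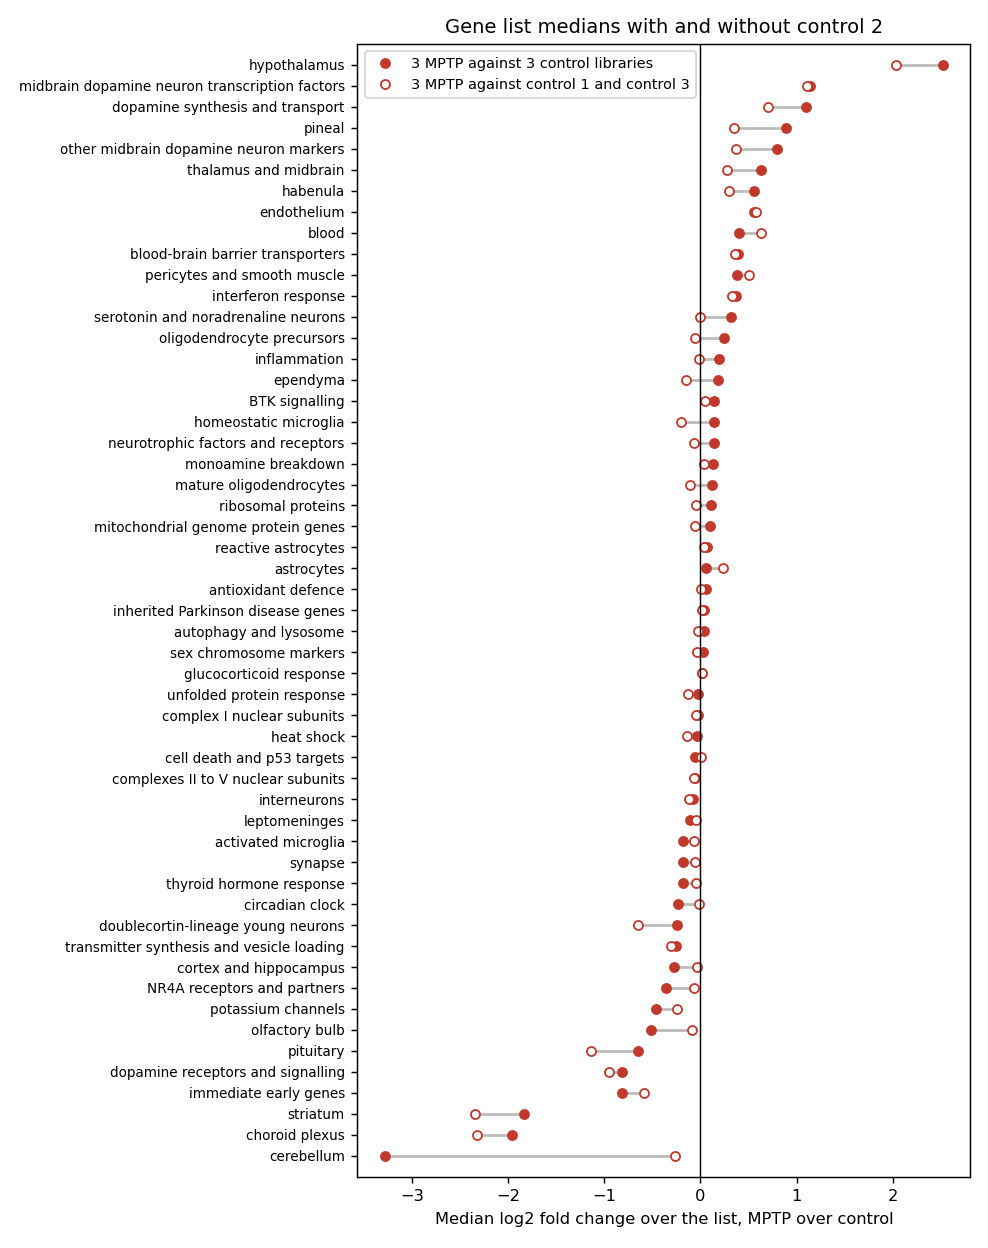
Median log2 fold change, MPTP over control, of the 53 gene lists with at least 5 tested genes, with all 6 libraries (filled) and without control 2 (open). The cerebellum list has a median of -3.28 with all libraries and -0.27 without control 2, while the endothelium list has 0.56 and 0.58.

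Some genes were chosen by rule for the smallest p in every fit that left 1 library out, or as DESeq2 calls. Several belonged to none of the lists, among them Podxl, Pdgfb and Epas1 above. Separation and p under 0.05 were conditions of the first rule and an adjusted call of the second, so these add no support of their own. Pde4c, a phosphodiesterase of cyclic AMP, had 2.82, 3.10 and 2.24 CPM in MPTP brain and 1.44, 0.985 and 0.965 CPM in control brain. Its log2 fold change was 1.27 ± 0.25 (SE), with an edgeR p of 0.000219 and a DESeq2 adjusted p of 0.00292. Txnrd3, a thioredoxin reductase, had 10.1, 11.1 and 9.18 CPM in MPTP brain and 5.31, 4.71 and 6.73 CPM in control brain. The log2 fold change of Txnrd3 was 0.86 ± 0.19 (SE), with a DESeq2 adjusted p of 0.00872. Slc35f2, a solute carrier, had 4.20, 5.18 and 5.07 CPM in MPTP brain and 2.32, 2.69 and 2.99 CPM in control brain. Trim14, an adaptor of antiviral signalling, had 1.42, 1.79 and 1.44 CPM in MPTP brain and 0.653, 0.608 and 0.683 CPM in control brain. The DESeq2 adjusted p was 0.0042 for Slc35f2 and 0.0149 for Trim14.

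In the lower direction, 128 genes (0.587%) kept p under 0.05 in every such fit. Rpe65, the retinoid isomerase known from the retinal pigment epithelium, had 0.293, 0.249 and 0.268 CPM in MPTP brain and 1.29, 0.903 and 0.965 CPM in control brain. Its mean over the 6 libraries was under 1 CPM, and it was named as a DESeq2 call. The log2 fold change was -1.96 ± 0.33 (SE) with an edgeR p of 4.92e-05 and a DESeq2 adjusted p of 0.00137. Malat1, an abundant nuclear long non-coding RNA, had 603, 919 and 966 CPM in MPTP brain and 1290, 2270 and 1670 CPM in control brain. Its log2 fold change was -1.07 ± 0.26 (SE), or -0.84 without control 2. Chst15, a sulfotransferase of chondroitin chains, had 8.97, 10.3 and 15.9 CPM in MPTP brain and 43.0, 34.4 and 17.2 CPM in control brain. Rn7s1, a 7S RNA of the signal recognition particle, had 0.644, 0.571 and 0.788 CPM in MPTP brain and 1.10, 4.20 and 3.33 CPM in control brain, and its near-identical copy Rn7s2 had nearly the same values, so reads of the pair cannot be assigned to either with certainty.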

How the data were processed

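Whole-number read counts per gene symbol were deposited by the authors, 1 file per library, with 45777 symbols. The build was GRCm38/mm10, and the tools were StringTie 2.1.3b, HISAT2 2.1.0, Trimmomatic and bcl2fastq 2.20.0, per the submitters' processing notes. The sources used here do not give the annotation, strand setting or handling of shared reads, so overlapping, antisense and near-identical genes are uncertain. Per the labels, libraries came from a stranded mRNA kit and groups and replicate numbers came from the titles.

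Counts were tested with edgeR 4.0.16 (R 4.3.3): TMM scaling, genes kept by filterByExpr on the groups, a quasi-likelihood fit over the 15 libraries together, contrast MPTP minus control, Benjamini-Hochberg adjustment at 0.05. Standard errors are the log2 fold change over the square root of F. No 2 libraries agreed within sampling noise (chi-square per degree of freedom 31.7 to 512 within groups).

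The 55 gene lists, the libraries compared and the alternatives were chosen with earlier results of these data known, and lists are described by counts and medians. Named genes were study genes (Nr4a2, Btk, Th, Slc6a3, Ddc, Slc18a2), the 12 largest changes each way among separated genes with p under 0.05 and at least 1 CPM, the 12 each way with the smallest p over the fits leaving out 1 library, up to 10 each way called by DESeq2 1.42.0, and up to 4 per list. A selection is printed, and 1 gene is not reported here. Alternatives were upper-quartile and RLE normalization, DESeq2, no filter, 5 CPM in 3 libraries, the 6 libraries alone, a replicate block and each library left out. The fits were checked on simulated counts, in which the spread of each gene was capped and genes varied independently. That check does not cover regional differences between libraries such as those seen here.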

Additional observations from a re-analysis of the deposited data

How the results depend on the processing

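Of the 88 genes examined, 85 kept the sign of their fold change under every alternative run. The exceptions were Nr4a2 (0.40 with all libraries, -0.12 to 1.24 with 1 library left out, negative without MPTP 2 and, at -0.03, without control 1), Aif1 (-0.31 to 0.51, negative without control 2 and at -0.31 also without levodopa 2) and Gfap (-0.40 to 0.21, positive without MPTP 1 and, at 0.08, without control 3). The cause was not tested.

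The count of genes passing the adjusted threshold was 0 in each edgeR fit except the replicate block, which called 1 gene, and it was 53 with DESeq2 on 15 libraries and 40 with DESeq2 on the 6 libraries. At an unadjusted p under 0.05 the count was 1445 of 21821 genes tested. With a filter of 5 CPM in 3 libraries it was 760 of only 12948 genes. It was 892 of 20418 with only the 6 libraries and 657 of 20418 with the replicate block. When 1 library was left out the count ran from 810 to 2832, lowest without MPTP 2 and highest without control 3. Without control 2 and levodopa 2 together it was 1598 of 22324. The count of fully separated genes was 2842 of 21821 genes tested, and 1742 of the 12948 that passed the stricter filter. It ran from 4238 to 6588 with 1 library left out, where fewer libraries separate more easily. Medians above 0 were found for 30 of 55 lists with all libraries and for 20 of 55 without control 2. Deviations from the group means of log2 CPM correlated at 0.239, 0.052 and 0.047 between same-numbered MPTP and control libraries. Between differently numbered ones they correlated at -0.179 to 0.095. Only the pair numbered 1, at 0.239, lay above that range, and the numbers were not taken to pair libraries. Depth limited genes at the low end, since Hcrt had 4, 2 and 14 reads in controls 1, 2 and 3 and Ghrh had 10, 0 and 8. The limits are 3 libraries per group, uneven regional content in every control and in MPTP 1 and MPTP 3, and no record of which mice a library holds.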
